A study of Mus musculus with 8 samples.

Results

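Histone variants are the replacement forms of the core and linker histones, and 8 genes that encode them were examined on mouse arrays: H2afz and H2afv (H2A.Z), H2afx (H2A.X), H2afy and H2afy2 (macroH2A), H1f0 (the linker histone H1.0), and H3f3a and H3f3b (H3.3). A probe set belonged to a gene if its RefSeq transcript mapped to the gene's former or current symbol. Of the 8 genes, 6 had a probe set, with 1 each among the 22523 probe sets tested, and no other probe set carried the values of any of these. H2afv and H3f3a were not analysed here. All values are RMA values on the log2 scale, so a difference of 1 is a 2-fold change.

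RNA from 8 cultures was hybridized to 1 array each, to ask which genes differ with the self-renewal pattern of p53-null murine fetal fibroblasts engineered to express p53 under zinc. The ASYM arrays (n = 3) were of Ind-8 cells, which carry a wild-type mouse p53 cDNA under a metallothionein promoter that responds to zinc, and which shift to asymmetric self-renewal when p53 is made. The SYM arrays (n = 3) were of Con-3 cells, which lack p53 and self-renew symmetrically; the labels call them the congenic parent of Ind-8 and the study's methods a vector control. The p53SYM arrays (n = 2) were of tI-3 cells, derived from Ind-8, which induce p53 but carry a constitutively expressed IMPDH II transgene and remain symmetric. Every culture was in DMEM with dialyzed fetal bovine serum and puromycin at 5 µg/ml, and was harvested after 48 h with 65 µM ZnCl2; the tI-3 medium also held G418. Since 1 clone stands for each state, differences between states and between clones cannot be told apart. Replicates are labelled as biological replicates of one line. The 3 comparisons (ASYM against SYM, ASYM against p53SYM, and p53SYM against SYM) share arrays and are not independent of one another.

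Core histones made in S phase package newly replicated DNA, whereas variants are made and deposited largely outside of replication. H2A.Z is exchanged into nucleosomes beside promoters by the SRCAP and EP400 complexes, H2A.X is phosphorylated around DNA breaks, macroH2A carries a large globular domain and marks repressed chromatin, H3.3 is placed in active genes by HIRA and at repeats by ATRX and DAXX, and H1.0 is the linker histone that accumulates in cells that leave the cycle. Transcript levels do not measure where a variant sits on chromatin.

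The arrays differed in ways that bear on the results. The 14 hybridization controls, RNAs added to each sample before hybridization, had means of 9.04, 8.98 and 9.03 in ASYM, 9.05, 9.16 and 9.62 in SYM, and 9.43 and 9.71 in p53SYM. SYM replicate 3 and both p53SYM arrays were thus high, and the other 5 arrays low. SYM replicate 3 also stood apart in an 18S rRNA control, with 11.38 for its 3′ probe set against at most 7.67 on the other arrays. Over all probe sets, the 7 pairs of arrays of one state correlated at 0.994 to 0.996, and the 21 pairs of different states at 0.978 to 0.988. The hybridization controls thus move with the state in the 2 comparisons that include p53SYM, and values of the variants among arrays of one control level are given beside the results. Signal at the 3′ end over the 5′ end, a sign of RNA quality, differed by 0.06 to 0.19 for the actin controls over the 8 arrays, lowest on the p53SYM arrays.

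**Figure D1:**
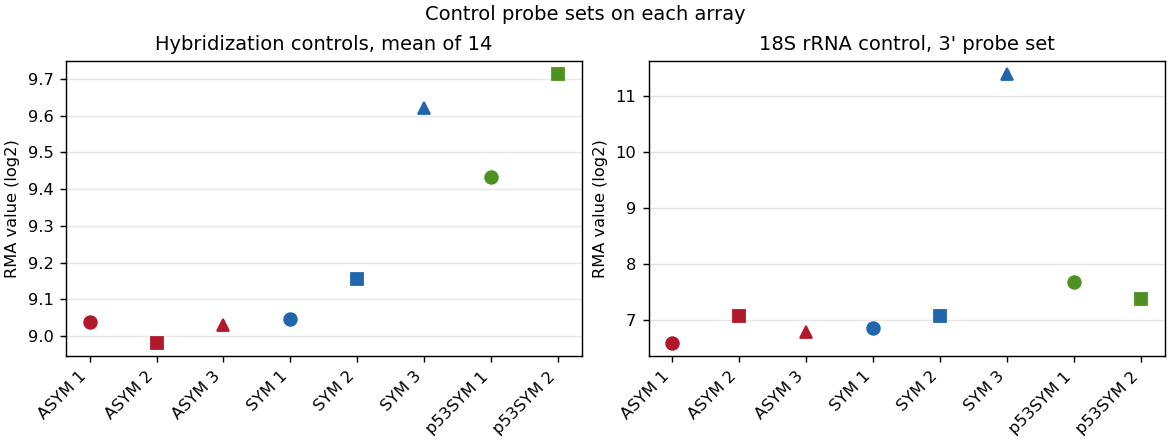
Values of control probe sets on each array (x axis, state and replicate), on the log2 scale (y axis). Left, the mean of 14 hybridization controls, high on SYM replicate 3 (9.62) and on p53SYM (9.43 and 9.71); right, the 3′ probe set of the 18S rRNA control, 11.38 on SYM replicate 3.

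The labels were checked on genes that the engineering touches. Trp53, which encodes p53, had values of 5.68, 5.87 and 5.80 on the ASYM arrays, 5.21, 5.29 and 5.27 on the SYM arrays, and 5.60 and 5.69 on the p53SYM arrays. It was up-regulated in ASYM over SYM (difference 0.53, SE 0.0873, limma adjusted p = 0.00192) and in p53SYM over SYM (0.39, SE 0.0976, adjusted p = 0.0144), a call lost without p53SYM replicate 2 (0.34, adjusted p = 0.109) and with the hybridization-control level as a block (0.38, 0.101). Cdkn1a, the p53 target that encodes the cell cycle inhibitor p21, was higher in ASYM than SYM by 3.81 and in p53SYM than SYM by 1.59, with no overlap between arrays. ASYM also exceeded p53SYM by 2.22 (limma adjusted p = 3.58e-06), so the lines that express p53 differed in this target. The study listed Cdkn1a from these same arrays, so its direction is not independent evidence. For Impdh2, which encodes IMPDH II, p53SYM did not exceed SYM although its cells carry the transgene: the mean was 12.36 in p53SYM, between 12.19 in ASYM and 12.53 in SYM. It was lower in ASYM than SYM (difference -0.34, limma adjusted p = 0.0108), and the difference between p53SYM and SYM did not pass (-0.17, adjusted p = 0.182). Whether this probe set detects the transgene was not tested. Mt1, a zinc-responsive metallothionein, did not pass the test in any comparison.

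Of 8 fibroblast markers, 7 lay above the 25th percentile of all probe sets (4.30), led by Vim, and Thy1 averaged below it, with values of 3.81 to 4.63. The collagen gene Col3a1 was at 6.26 and 6.51 on the p53SYM arrays and at 7.91 to 9.37 on the other 6. The other markers went both ways between the means of p53SYM and SYM. Lower in p53SYM were Col1a1 (10.85 and 11.91), Col1a2 (12.03 and 12.05) and Vim (13.65 and 13.88). Higher were Fn1 (12.75 and 12.47), Pdgfrb (9.30 and 8.98), S100a4 (13.91 and 13.73) and Thy1 (4.56 and 4.19). Epithelial markers exceeded that level in 1 of 4 genes, blood markers in 2 of 3 and endothelial markers in 1 of 3, with a highest value of 6.69 for Kdr. Epcam, Cdh1, Ptprc, Pecam1 and Cdh5 were all below it on average.

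The variants showed 3 patterns: H2afz was lowest in ASYM, H2afx was low in both lines that express p53, and H1f0 and H3f3b were highest in p53SYM, while neither macroH2A gene passed the test in any comparison. In ASYM against SYM, limma called 0 of the 6 genes higher (10.9% of all probe sets were), with 1 at an unadjusted p under 0.05, and 2 lower, H2afz and H2afx (11.0% of all), with H2afy2 the third lower at an unadjusted p under 0.05. The rank product test, which is the study's test and was run at a percent of false positives (pfp) under 0.05, called 0 higher (2.19% of all) and H2afz lower (1.42% of all). In ASYM against p53SYM, limma called 0 higher (15.6% of all), with 0 at an unadjusted p under 0.05, and 3 lower, H2afz, H1f0 and H3f3b (15.5% of all). The count lower was 0 with the hybridization-control level as a block, 1 without either p53SYM array and 1 with a change of at least 0.5 required. With that block limma called 3.14% of all probe sets in ASYM against p53SYM, counting both directions (31.1% without it). In p53SYM against SYM it called 13.6% (25.4% without it). These shares belong beside every count under that block. Leaving out a compared array lowered the limma share over all probe sets too, counting both directions. In ASYM against SYM it was 15.5% to 19.7% (21.9% with all arrays). Without 1 ASYM array it was 22.7% to 27.9% in ASYM against p53SYM, and without 1 SYM array 18.7% to 23.7% in p53SYM against SYM. It fell in both of these without either p53SYM array as well. The rank product share in ASYM against SYM was then 1.61% to 2.04% (3.61% with all arrays). In ASYM against p53SYM the rank product test called 0 higher (1.59% of all) and 0 lower (0.408% of all), with H1f0 the 1 gene at an unadjusted p under 0.05. In p53SYM against SYM, limma called H1f0 and H3f3b higher (10.2% of all) and H2afz and H2afx lower (15.1% of all), and the rank product test called H1f0 higher (0.630% of all) and 0 lower (1.66% of all), with H2afx the 1 gene lower at an unadjusted p under 0.05. The 4 limma calls became 2 with that block and 2 with the minimum change, and both rank product calls were lost without any 1 array of their comparison.

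**Figure D2:**
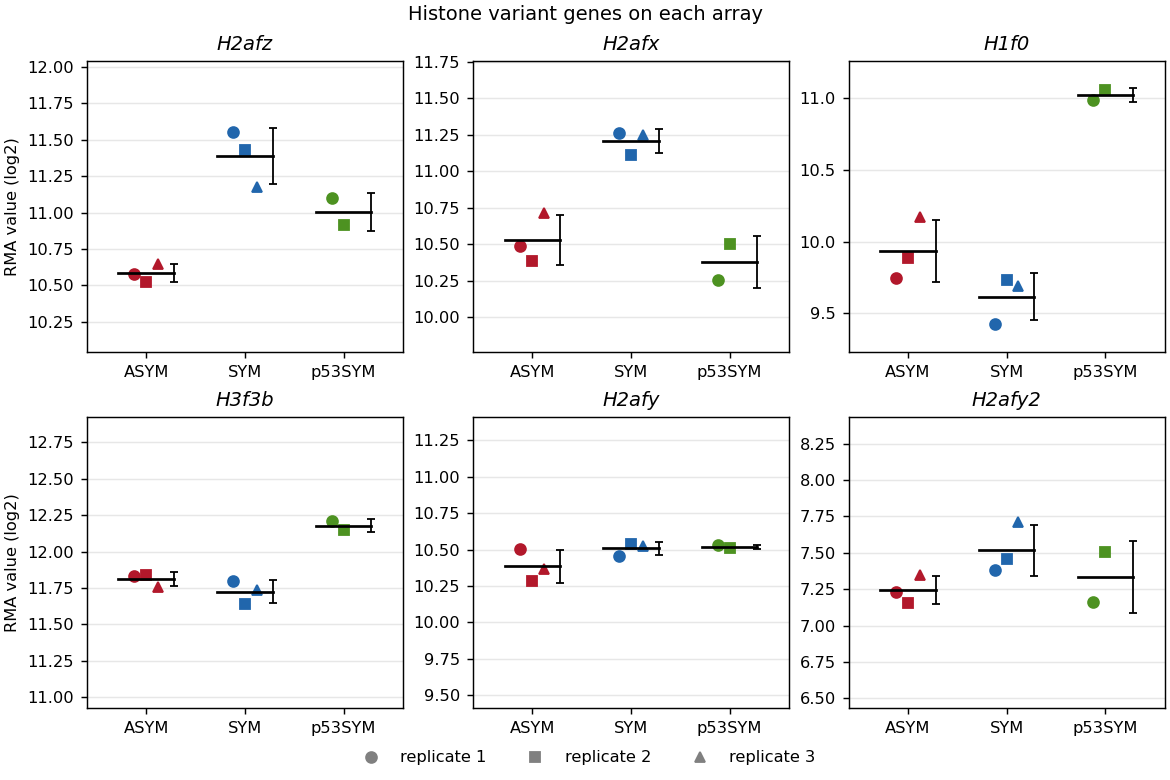
Value of each histone variant gene on each array (y axis, log2) by state (x axis). Symbols are arrays, horizontal lines are means and vertical bars are SD (n = 3, 3 and 2); each panel has its own axis. H2afz lies at 10.52 to 10.65 in ASYM and 11.18 to 11.55 in SYM, and H1f0 at 10.99 and 11.06 in p53SYM.

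H2afz encodes H2A.Z.1. Its probe set, NM_016750, had values of 10.58, 10.52 and 10.65 on the ASYM arrays, 11.55, 11.43 and 11.18 on the SYM arrays, and 11.10 and 10.91 on the p53SYM arrays. The states did not overlap: every ASYM array was below both p53SYM arrays, and these were below every SYM array. H2afz was down-regulated in ASYM against SYM by a difference of -0.80 (SE 0.111, limma adjusted p = 0.000815), and SYM was 1.75-fold over ASYM. By the study's account, an asymmetric division gives a cycling cell and an arrested cell. In such mixed cultures, fewer cells with the transcript and less RNA per cell cannot be told apart. Among all probe sets this difference ranked 227 from the lowest of 22523. Its pfp was 0.0324, and it was above 0.05 when any 1 of the 6 arrays was left out, from 0.0582 to 0.199, while the limma call remained in all of these.

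The ASYM and p53SYM states differed less. H2afz was lower in ASYM than p53SYM by a difference of -0.42 (SE 0.124, limma adjusted p = 0.0279), and lower in p53SYM than SYM by -0.38 (SE 0.124, adjusted p = 0.0460). The first call was lost without either p53SYM array and without ASYM replicate 1 or 2 (adjusted p from 0.0615 to 0.158), and with the hybridization-control level as a block, where the difference was -0.74 (0.0543). The other was lost with that block (-0.17, 0.480), without any array but SYM replicate 3, the array that stood apart (from 0.0591 to 0.278), and also with limma on the 2 compared groups only or with the arrays quantile-normalized again. Over 17 alternatives, all but the minimum change of 0.5, which H2afz did not reach in either comparison, the adjusted p ran from 0.00929 to 0.158 for ASYM against p53SYM and from 0.0147 to 0.480 for p53SYM against SYM. Among arrays with low hybridization controls, H2afz differed by -0.91 between ASYM and SYM. Among those with high controls it differed by -0.17 between p53SYM and SYM, with 1 SYM array, so the place of p53SYM between the other 2 states rests on arrays of unlike hybridization-control level. H2afz is a gene that the study listed from these same arrays, so its direction in ASYM against SYM is not independent evidence.

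The upstream sequence of H2afz (current symbol H2az1) is shown because it is the gene the rank product test called in ASYM against SYM, and those of H1f0 and H3f3b because both were highest in p53SYM. RefSeq promoter entries of the mouse assembly GRCm38.p6 were found for 7 of the 8 genes, not for H2afx. The 250 bases before the start that RefSeq gives there are at chr3:137864237-137864486 on the plus strand for H2afz, chr15:79027962-79028211 on the plus strand for H1f0, and chr11:116024505-116024754 on the minus strand for H3f3b, each written 5′ to 3′ in the direction of its gene. For H3f3b this start lies inside the annotated gene (chr11:116021961-116026039), so its window is not the sequence before the gene's outermost start. Capitals mark matches, on either strand, to CCAAT (the NF-Y box), CACGTG (an E-box), TTTGAA (the core of the cell cycle element CHR) and TATAAA (the box named for it). The motifs were chosen after the sequences had been seen.
H2afz: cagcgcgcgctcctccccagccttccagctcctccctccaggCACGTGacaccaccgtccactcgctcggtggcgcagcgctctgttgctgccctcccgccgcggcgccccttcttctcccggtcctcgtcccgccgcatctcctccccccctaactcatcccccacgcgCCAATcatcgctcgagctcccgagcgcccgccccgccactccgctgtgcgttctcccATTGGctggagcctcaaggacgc
H1f0: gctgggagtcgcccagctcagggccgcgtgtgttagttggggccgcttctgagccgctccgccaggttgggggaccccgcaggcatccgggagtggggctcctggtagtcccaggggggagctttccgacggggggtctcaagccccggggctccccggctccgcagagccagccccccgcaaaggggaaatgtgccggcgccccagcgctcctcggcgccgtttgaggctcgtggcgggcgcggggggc
H3f3b: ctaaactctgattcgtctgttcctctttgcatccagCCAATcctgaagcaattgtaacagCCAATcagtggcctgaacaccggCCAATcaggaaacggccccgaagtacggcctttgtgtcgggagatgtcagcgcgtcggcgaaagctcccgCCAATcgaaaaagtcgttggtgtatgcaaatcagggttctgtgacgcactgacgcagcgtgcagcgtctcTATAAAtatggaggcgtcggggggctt

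The H2afz window held CCAAT 2 times, starting 80 and 23 bases before the start, and CACGTG 1 time. The H3f3b window held CCAAT 4 times and TATAAA 1 time, 27 bases before the start, and the H1f0 window held none of the 4 motifs. Of 32851 windows of this length, CCAAT was in 33.8%, CACGTG in 6.02%, TTTGAA in 16.0% and TATAAA in 12.4%. The H2afz and H1f0 windows were 71.2% and 74.4% G or C, that of H3f3b 54.0%, and the median window 52.4%. A match is a description of these letters and not a sign of binding.

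Genes that place or remove H2A.Z were counted beside H2afz. Of 13 listed genes 11 had a probe set, and in ASYM against SYM 0 were higher (10.9% of all probe sets were) and 3 lower (11.0% of all) by limma. These 3 were Ruvbl2, a helicase of the exchange complexes (-0.53, limma adjusted p = 0.0138), Kat5, the acetyltransferase of the complex that holds EP400 (-0.35, adjusted p = 0.0290), and Anp32e, a chaperone that removes H2A.Z (-0.40, adjusted p = 0.00947). At an unadjusted p under 0.05, 0 were higher and 5 lower, and the rank product test called 0 of the 11 in any comparison. The list's median difference was -0.19, beside -0.06 over all probe sets. Anp32e kept its call with each array left out in turn. Ruvbl2 lost it without ASYM replicate 2 (-0.45, adjusted p = 0.0604) or SYM replicate 3 (-0.42, adjusted p = 0.0518), and Kat5 without any of the 6 compared arrays but ASYM replicate 1 (adjusted p from 0.0593 to 0.103). The count lower was 1 without ASYM replicate 2 or SYM replicate 3 and with the hybridization-control block, and 4 with the arrays quantile-normalized again.

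In ASYM against p53SYM, 3 genes of the list were higher (15.6% of all probe sets) and 2 lower (15.5%), with a median of 0.02 beside -0.06 over all. Lower were Kat5 (-0.75, limma adjusted p = 0.00100) and Anp32e (-0.59), whose calls were kept with each array left out. Higher were Actr6, a subunit of the SRCAP complex (0.43), and Dmap1 (0.42) and Yeats4 (0.32), subunits of both complexes. All 3 lost their calls without ASYM replicate 2 or either p53SYM array, where the count higher was 0 (adjusted p from 0.0522 to 0.204). Actr6 lost its call also without ASYM replicate 1 or SYM replicate 2 (adjusted p = 0.0564 and 0.0527) and with the arrays centred again (0.42, 0.0521). Yeats4 lost it without ASYM replicate 1 (0.0802) and Dmap1 without ASYM replicate 3 (0.0926). Without ASYM replicate 1 the count higher was 1. With the arrays quantile-normalized again, the counts became 0 higher and 4 lower, and the median turned to -0.08. With the hybridization-control level as a block both counts were 0, where 3.14% of all probe sets were called in either direction.

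Between p53SYM and SYM the list had 2 genes higher (10.2% of all probe sets) and 3 lower (15.1%), with a median of -0.14 beside 0.04 over all. Dmap1 (-0.70) and Yeats4 (-0.56) were lower and stayed called in all 17 alternatives. Actr6 (-0.44) was the third, a call lost without ASYM replicate 3, SYM replicate 1 or 2 or either p53SYM array (adjusted p from 0.0502 to 0.213). Actr6 lost it also with limma on the 2 compared groups only (0.0554) and with the arrays centred again (0.0532). So it did with the arrays quantile-normalized again (-0.30, 0.123) and with the hybridization-control block (-0.20, 0.451). Vps72, which binds H2A.Z directly (0.33), and Kat5 (0.41) were higher. Vps72 lost its call without SYM replicate 1 or 3 or either p53SYM array (adjusted p from 0.0579 to 0.132) and with limma on the 2 compared groups only (0.0586), and Kat5 without SYM replicate 2 (0.0509) or p53SYM replicate 1 (0.150). The count higher was 0 without p53SYM replicate 1, 1 without any other of the 5 compared arrays, and 0 with the hybridization-control block, which left 2 lower. With the arrays quantile-normalized again, 3 were higher and 2 lower, with a median of -0.04.

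H2afx encodes H2A.X. Its values were 10.49, 10.38 and 10.72 on the ASYM arrays, 11.26, 11.11 and 11.25 on the SYM arrays, and 10.25 and 10.50 on the p53SYM arrays. All 5 arrays of the lines that express p53 were below every SYM array, whereas ASYM and p53SYM overlapped. The difference was -0.68 in ASYM against SYM (SE 0.112, limma adjusted p = 0.00207) and -0.83 in p53SYM against SYM (SE 0.126, adjusted p = 0.00105), and SYM was 1.60-fold over ASYM and 1.78-fold over p53SYM. Both calls were kept in all 17 alternatives. Between ASYM and p53SYM the difference was 0.15 (SE 0.126, limma adjusted p = 0.373), with a 95% interval from -0.13 to 0.43. The rank product test did not call H2afx, with a pfp of 0.0746 in ASYM against SYM and 0.138 in p53SYM against SYM. Among arrays of one hybridization-control level the differences were -0.66 for ASYM against SYM and -0.87 for p53SYM against SYM.

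All 13 listed genes that phosphorylate H2A.X or read and remove the mark had a probe set, and they moved in both directions. In ASYM against SYM, 2 were higher (10.9% of all probe sets were) and 5 lower (11.0%) by limma, with a median of -0.22 beside -0.06 over all probe sets. Prkdc, the catalytic subunit of DNA-PK, was higher by 1.00 (SE 0.100, limma adjusted p = 0.000126) and was the 1 gene of the list that the rank product test called (pfp 0.0309; from 0.0521 to 0.147 when any 1 of the 6 arrays was left out, and so not called). Its values were 7.53, 7.26 and 7.22 on the ASYM arrays, 6.32, 6.40 and 6.28 on the SYM arrays, and 6.91 and 6.90 on the p53SYM arrays. Lower were Brca1 (-0.67), the ubiquitin ligase Rnf168 (-0.53) and the kinase Atm (-0.40), with limma adjusted p from 0.00376 to 0.0130. These 3 and Prkdc stayed called in all 17 limma alternatives, none of which requires a minimum change; Atm was under 0.5. Smarca5, a remodeler, was lower as well (-0.46); it lies outside the rule for named genes and is named after its value was seen. Baz1b, a kinase of another residue of H2A.X, was the fifth (-0.27), a call lost without any 1 of the 8 arrays (adjusted p from 0.0531 to 0.112), which left 4 lower each time. Trp53bp1, which binds chromatin at breaks, was the second gene higher (0.31), a call lost without any 1 of the 6 compared arrays (adjusted p from 0.0525 to 0.150), which left 1 higher each time, as did either block and centring the arrays again. With the arrays quantile-normalized again 6 were lower.

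In p53SYM against SYM, 1 gene of this list was higher, Prkdc (0.57; 10.2% of all probe sets were), and 7 were lower (15.1%), with a median of -0.30 beside 0.04 over all probe sets. Prkdc and, among the lower, Ppm1d, a phosphatase that acts on the mark (-0.69), stayed called in all 17 alternatives. The count lower was 1 without p53SYM replicate 2, 4 without p53SYM replicate 1 or SYM replicate 1, 1 with the hybridization-control level as a block and 4 with the arrays quantile-normalized again, where the median was -0.17. Mdc1, which reads the mark (-0.62), was not called without p53SYM replicate 2 (-0.44, adjusted p = 0.103), nor Brca1 (-0.60) without p53SYM replicate 1 or 2 (0.0599 and 0.0504). Rnf168 (-0.38) lost it without SYM replicate 1 or 3 or either p53SYM array (adjusted p from 0.0715 to 0.152), and Ppp4c, the catalytic subunit of another phosphatase of the mark (-0.30), without any array but p53SYM replicate 1 (from 0.0543 to 0.293).

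Between ASYM and p53SYM, 3 genes were higher in ASYM (15.6% of all probe sets were), Prkdc (0.43), Mdc1 (0.44) and Ppm1d (0.65), and 2 lower (15.5%), Atm (-0.37) and Baz1b (-0.44). Only Ppm1d kept its call with each array left out. Prkdc lost it without p53SYM replicate 1 or 2 (adjusted p = 0.0631 and 0.0870), Mdc1 without ASYM replicate 1 or 2, SYM replicate 2 or p53SYM replicate 2 (from 0.0535 to 0.300), Atm without ASYM replicate 1 or either p53SYM array (from 0.0742 to 0.108) and Baz1b without p53SYM replicate 2 (0.0606). The counts were thus 1 higher and 0 lower without p53SYM replicate 2, and 1 lower without ASYM replicate 1 or p53SYM replicate 1. The list's median, 0.08 beside -0.06 over all probe sets, turned to -0.05 with the arrays quantile-normalized again, which left 1 higher. Both counts were 0 with the hybridization-control block, where 3.14% of all probe sets were called in either direction.

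Neither macroH2A gene passed either test. H2afy, which encodes macroH2A1, had values of 10.51, 10.28 and 10.36 in ASYM, 10.46, 10.54 and 10.52 in SYM, and 10.53 and 10.51 in p53SYM. Its 95% intervals ran from -0.32 to 0.07 for ASYM against SYM, from -0.36 to 0.08 for ASYM against p53SYM and from -0.21 to 0.23 for p53SYM against SYM. H2afy2, which encodes macroH2A2, had values of 7.23, 7.16 and 7.35 in ASYM, 7.38, 7.46 and 7.71 in SYM, and 7.16 and 7.51 in p53SYM. Every ASYM array was below every SYM array for H2afy2, with a difference of -0.27 (SE 0.122) that did not pass the test (unadjusted p = 0.0497, limma adjusted p = 0.149). Its 95% intervals ran from -0.54 to -0.0004 for ASYM against SYM, which leaves out 0, from -0.39 to 0.21 for ASYM against p53SYM and from -0.48 to 0.12 for p53SYM against SYM. Among arrays of one hybridization-control level, H2afy2 differed by -0.17 between ASYM and SYM and by -0.38 between p53SYM and SYM, where the difference over all arrays was -0.18, and H2afy differed by -0.12 and by -0.0046. A change in either gene as large as that of H2afz in ASYM against SYM lies outside these intervals.

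**Figure D3:**
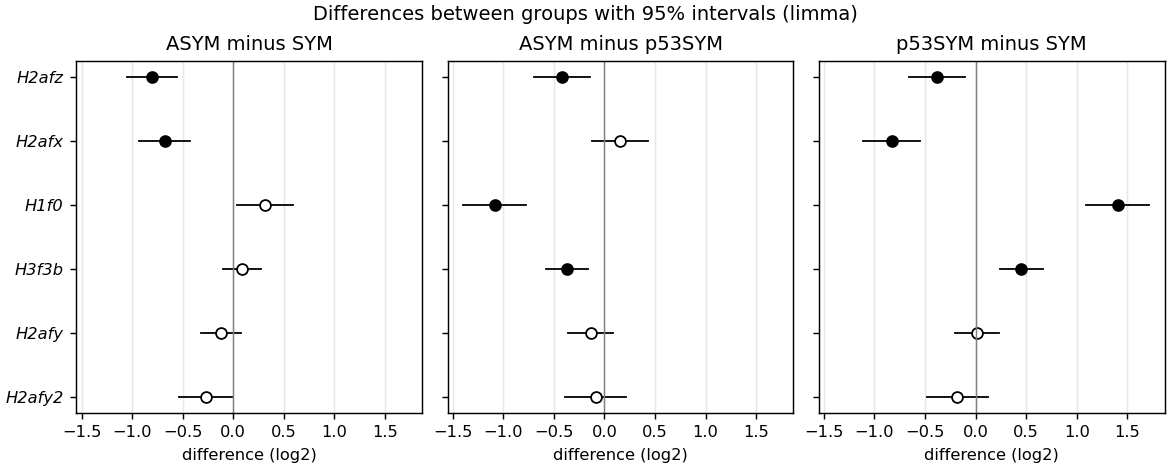
Difference between states of each histone variant gene (x axis, log2) in the 3 comparisons, with 95% intervals from limma as horizontal lines. Filled points passed an adjusted p of 0.05. H2afz lies at -0.80, -0.42 and -0.38, and H1f0 at 0.32, -1.08 and 1.40.

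H1f0 encodes the linker histone H1.0 and showed the largest difference of the 6 genes. Its values were 9.75, 9.89 and 10.17 on the ASYM arrays, 9.43, 9.73 and 9.69 on the SYM arrays, and 10.99 and 11.06 on the p53SYM arrays. Both p53SYM arrays were above all others, and each ASYM array was above each SYM array. H1f0 was up-regulated in p53SYM against SYM by 1.40 (SE 0.140, limma adjusted p = 0.000110), or 2.65-fold, and down-regulated in ASYM against p53SYM by a difference of -1.08 (SE 0.140, adjusted p = 0.000534). ASYM exceeded SYM by 0.32 (SE 0.125), which did not pass the test (limma adjusted p = 0.0997; from 0.0415 to 0.291 over 17 alternatives).

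The rank product test called H1f0 in p53SYM against SYM (pfp 0.0293) and not in ASYM against p53SYM (pfp 0.0511; 0.0342 with the arrays quantile-normalized again). The first call was lost when any 1 of the 5 arrays was left out, with a pfp from 0.0503 to 0.486. Among arrays with high hybridization controls, p53SYM exceeded SYM replicate 3 by 1.33, and among those with low controls ASYM exceeded SYM by 0.36. With the control level as a block, the difference between ASYM and p53SYM was -0.97 and did not pass (limma adjusted p = 0.0635; from 0.000208 to 0.0635 over 17 alternatives). Since all ASYM arrays are low and both p53SYM arrays high in these controls, that comparison holds no arrays of one level.

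H3f3b encodes H3.3, as H3f3a does. Its values were 11.84, 11.84 and 11.76 in ASYM, 11.80, 11.64 and 11.74 in SYM, and 12.21 and 12.15 in p53SYM. Both p53SYM arrays were above all others, and ASYM and SYM overlapped. H3f3b was higher in p53SYM than SYM by 0.45 (SE 0.0945, limma adjusted p = 0.00594) and lower in ASYM than p53SYM by a difference of -0.37 (SE 0.0945, adjusted p = 0.0158), and differed by 0.09 between ASYM and SYM, with a 95% interval from -0.10 to 0.27. The call in ASYM against p53SYM was lost without either p53SYM array (limma adjusted p = 0.0786 and 0.0625). Among arrays with low controls ASYM exceeded SYM by 0.09. With the control level as a block, the differences were 0.44 in p53SYM against SYM and -0.35 in ASYM against p53SYM, and neither passed (adjusted p = 0.0552 and 0.290; over 17 alternatives from 0.00146 to 0.0552 and from 0.00437 to 0.290). The rank product test did not call H3f3b.

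Of 9 listed chaperones of H3.3 and macroH2A, 8 had a probe set. In p53SYM against SYM 2 were higher (10.2% of all probe sets were) and 4 lower (15.1%), with a median of -0.30 beside 0.04 over all. Asf1a (-0.74), a chaperone of H3 and H4, was lower and stayed called in all 17 alternatives. Atrx, the remodeler that works with DAXX, was higher (0.81), a call lost without p53SYM replicate 1 (0.67, adjusted p = 0.0945), and Ubn1, a subunit of the HIRA complex, was higher (0.48), a call lost without p53SYM replicate 1 (0.124) or SYM replicate 3 (0.0509). Cabin1, another subunit of that complex (-0.52), lost its call without p53SYM replicate 1 (0.0515), and Hells, a remodeler of the SNF2 family linked to macroH2A (-0.58), without p53SYM replicate 2 (0.0563). The count higher was 0 without p53SYM replicate 1 and 1 without SYM replicate 3, and the count lower was 2 without either p53SYM array and with the hybridization-control block.

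In ASYM against SYM 0 of these genes were higher (10.9% of all probe sets were) and 2 lower (11.0%), with 1 higher at an unadjusted p under 0.05. The lower genes were Asf1a (-0.42) and Hells (-0.79, SE 0.105, limma adjusted p = 0.000665), both called in all 17 alternatives, though Asf1a was under a change of 0.5, a minimum that was not applied in these. The rank product test called Hells (pfp 0.0343), but not when any of the 6 arrays except ASYM replicate 1 was left out (from 0.0519 to 0.199). In ASYM against p53SYM, 1 was higher (15.6% of all) and 1 lower (15.5%). Atrx was the lower one (-0.92, SE 0.193, limma adjusted p = 0.00662), a call lost without p53SYM replicate 1 (-0.78, adjusted p = 0.0522), where the count lower was 0, and with the hybridization-control block (-1.23, 0.0696). Cabin1 was the higher one (0.33, adjusted p = 0.0450), a call lost without SYM replicate 3 and without any ASYM or p53SYM array (from 0.0535 to 0.190). The count higher was 0 with either block, with the arrays quantile-normalized again and without ASYM replicate 2 or 3, SYM replicate 3 or p53SYM replicate 2, and 2 with the filter at the 25th percentile. With limma's trend setting, Cabin1 lost its call (adjusted p = 0.0630) and Asf1a gained one as higher in ASYM (0.31, 0.0343). The median was -0.13 for ASYM against SYM, and 0.03 for ASYM against p53SYM (-0.06 over all probe sets in both), where it turned to -0.04 with the arrays quantile-normalized again.

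The chaperones that deliver histones during replication showed the most one-sided counts of the lists in ASYM against SYM. Of 9 genes found among 11 listed, 0 were higher (10.9% of all probe sets were) and 7 lower (11.0% of all) by limma (also 0 higher at an unadjusted p under 0.05), with a median of -0.38 beside -0.06 over all probe sets. Asf1b, which hands H3 and H4 to the assembly factors, had values of 8.57, 8.54 and 8.79 on the ASYM arrays, 9.65, 9.64 and 9.75 on the SYM arrays, and 9.33 and 9.35 on the p53SYM arrays. It was down-regulated in ASYM against SYM by a difference of -1.04 (SE 0.0939, limma adjusted p = 7.64e-05), and the rank product test called it as well (pfp 0.00377; 0.0507, and not called, without SYM replicate 3). Nasp, a chaperone of H3 and H1 (-0.71), Nap1l1, a chaperone of H2A and H2B (-0.45), and Hat1, which acetylates new H4 (-0.44), were lower too. So were Supt16 and Ssrp1, the subunits of FACT (-0.38 and -0.34), and Rbbp7, a histone-binding protein (-0.34). Asf1b, Nasp, Nap1l1 and Hat1 stayed called by limma in all 17 alternatives, without a minimum change. Nap1l1 and Hat1 were under 0.5. Nasp had 2 probe sets with different values. Only the one with the higher mean is given, and the other is not reported here. Supt16 lost its call without ASYM replicate 1 (adjusted p = 0.0511), Ssrp1 without any array but that one (from 0.0526 to 0.131) and Rbbp7 without any ASYM array or SYM replicate 1 or 3 (from 0.0640 to 0.0970), and the count lower was 5 or 6 when any 1 array was left out.

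In ASYM against p53SYM, 5 of these 9 were lower (15.5% of all probe sets were) and 1 higher (15.6%), with a median of -0.33 beside -0.06 over all. Asf1b (-0.71) and Supt16 (-0.58) were lower and kept their calls with each array left out. Chaf1b, a subunit of CAF-1 (-0.40), and Hat1 (-0.33) lost theirs without ASYM replicate 2 or either p53SYM array (adjusted p from 0.0535 to 0.103), and Nasp (-0.37) without p53SYM replicate 2 (0.0671). Rbbp7 was higher (0.41), a call lost without ASYM replicate 2 (0.0510) or p53SYM replicate 2 (0.124), where the count higher was 0. The count lower was 2 without p53SYM replicate 2 and 3 without p53SYM replicate 1 or ASYM replicate 2. With the hybridization-control level as a block both counts were 0, where 3.14% of all probe sets were called in either direction, and the list's median was -0.29. With the arrays quantile-normalized again 7 were lower, with a median of -0.46.

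Between p53SYM and SYM 4 of them were lower (15.1% of all probe sets were) and 1 higher (10.2%), with a median of -0.16 beside 0.04 over all. Rbbp7 (-0.75) was lower and stayed called in all 17 alternatives. Asf1b (-0.34) lost its call without any SYM or p53SYM array (adjusted p from 0.0613 to 0.141), Nasp (-0.34) without SYM replicate 2 or either p53SYM array (from 0.0554 to 0.0902) and Nap1l1 (-0.29) without any 1 of the 8 arrays (from 0.0537 to 0.208). The count lower was 1 without SYM replicate 2 or either p53SYM array, 2 without SYM replicate 1 or 3, 2 with the replicate number as a block, 1 with the hybridization-control block, and 1 with the arrays quantile-normalized again, where the median was -0.05. Chaf1b was the higher one (0.44), a call lost without p53SYM replicate 1 (0.0501) or 2 (0.0802), where the count higher was 0. Chaf1b lost its call also with the hybridization-control block (0.43, adjusted p = 0.0848), where the count higher was 0. Asf1b, Nasp, Hat1, Nap1l1 and Ssrp1 had their lowest values in ASYM, middle values in p53SYM and highest values in SYM, with no overlap. This is the order of H2afz, and the middle place again rests on arrays of unlike hybridization-control level. With the block, p53SYM and SYM differed by -0.41 for Asf1b (limma adjusted p = 0.0958) and -0.34 for Nasp (0.110).

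**Figure D4:**
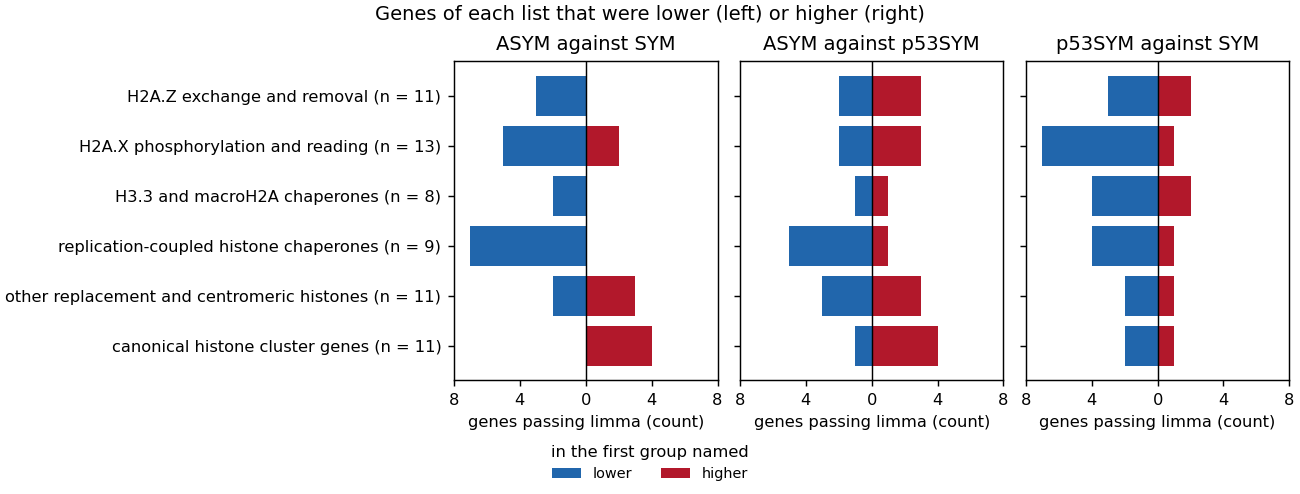
Number of genes of each list that were higher (red, right) or lower (blue, left) in the first group named, by limma at an adjusted p of 0.05, in each comparison; n is the number of genes with a probe set. Of 9 replication-coupled chaperones, 7 were lower in ASYM than SYM and 0 higher.

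Other replacement and centromeric histones, and the factors that load them, were counted last. Of 13 listed genes 11 had a probe set; in ASYM against SYM 3 were higher (10.9% of all probe sets were) and 2 lower (11.0%) by limma, and the rank product test called 2 higher (2.19% of all) and 0 lower (1.42%). For ASYM against p53SYM limma called 3 higher (15.6% of all) and 3 lower (15.5%), and rank product 2 higher (1.59%) and 0 lower (0.408%). For p53SYM against SYM limma called 1 higher (10.2%) and 2 lower (15.1%), and rank product 0 higher (0.630%) and 1 lower (1.66%). The medians were -0.14, -0.22 and 0.05, beside -0.06, -0.06 and 0.04 over all. Without SYM replicate 3 the first was -0.09 and the third 0.01, and with the arrays quantile-normalized again they were -0.09 and 0.11. H2afj, a replacement H2A, was at 8.05, 8.19 and 8.17 on the ASYM arrays, 6.99, 7.16 and 7.20 on the SYM arrays, and 7.70 and 7.60 on the p53SYM arrays. It was up-regulated in ASYM against SYM by 1.02 (SE 0.0928, limma adjusted p = 8.31e-05), and the rank product test called it there (pfp 0.0294), but not when any of the 6 arrays except SYM replicate 3 was left out (from 0.0580 to 0.141). ASYM exceeded p53SYM by 0.49 and p53SYM exceeded SYM by 0.53. Both calls were lost with the hybridization-control block, where the differences were 0.61 and 0.45 (limma adjusted p = 0.0950 and 0.0640). The first was lost also with quantile normalization again (0.31, 0.0563) and without p53SYM replicate 2 (0.44). The order of the states was the reverse of that of H2afz, with no overlap. Cenpa, the centromeric H3, was lower in ASYM than SYM by a difference of -0.59 (SE 0.0902, limma adjusted p = 0.00130) and lower than p53SYM by -0.59 (adjusted p = 0.00247). With the block its difference from p53SYM was -0.53 (limma adjusted p = 0.133), and that of Hjurp, given next, was -0.42. Oip5, of the complex that licenses its loading, was lower in ASYM than SYM (-0.48), and Hjurp, its chaperone, lower in ASYM than p53SYM (-0.46), a call lost without p53SYM replicate 2 (0.0789) and with the block (0.254). The list's count lower in ASYM against p53SYM was 1 without p53SYM replicate 2 and 0 with the block. In p53SYM against SYM it was 1 in both settings, and the count higher was 2 without SYM replicate 2 and 0 with the block.

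Hist1h2bc and Hist1h1c, cluster genes for an H2B and an H1, belong to the same list. Hist1h2bc was at 8.25, 8.83 and 8.10 in ASYM, 7.43, 7.25 and 7.15 in SYM, and 6.02 and 5.63 in p53SYM, and the rank product test called it in all 3 comparisons (pfp 0.0204 in ASYM against SYM, 0 in ASYM against p53SYM and 0.0104 in p53SYM against SYM). The first of these calls was lost without any 1 ASYM array (pfp from 0.0814 to 0.151) and the last without any 1 SYM array or p53SYM replicate 2 (from 0.0653 to 0.0762). Its differences were 1.12 in ASYM against SYM (SE 0.179, limma adjusted p = 0.00174), 2.57 in ASYM against p53SYM (SE 0.201, adjusted p = 3.32e-05) and -1.45 in p53SYM against SYM (SE 0.201, adjusted p = 0.000644). Hist1h1c followed the same order, with 0.81, 1.54 and -0.73, and was called by rank product in ASYM against p53SYM (pfp 0.0127; not called without any 1 ASYM array or p53SYM replicate 2, from 0.0559 to 0.0924). Its limma call in p53SYM against SYM was lost without p53SYM replicate 2 (-0.59) and with the block (-0.59, adjusted p = 0.0718). For both, p53SYM was lowest, whereas H1f0, another linker histone gene, was highest there. The study listed both from these arrays, so their directions are not independent evidence.

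**Figure D5:**
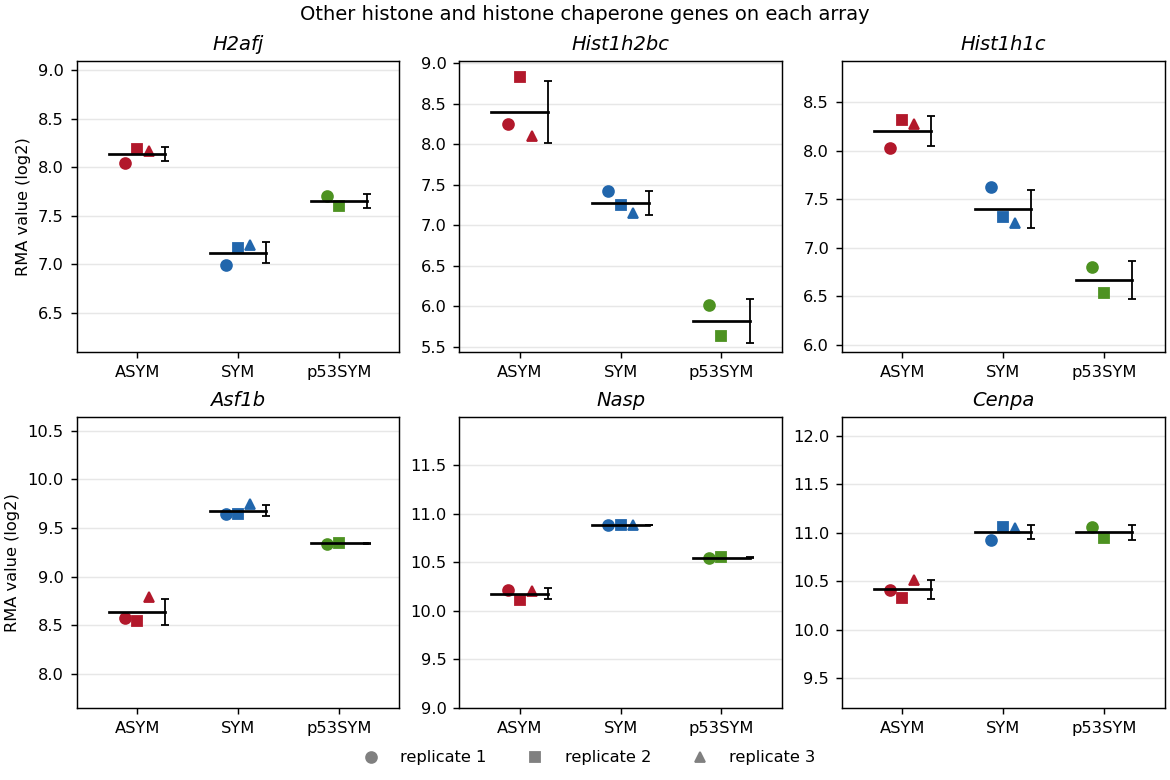
Value on each array (y axis, log2) by state (x axis) of 6 histone and histone chaperone genes. Symbols are arrays, horizontal lines are means and vertical bars are SD (n = 3, 3 and 2); each panel has its own axis. Asf1b and Nasp are lowest in ASYM, and Hist1h2bc and Hist1h1c lowest in p53SYM, at 5.63 and 6.53 on p53SYM replicate 2.

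Genes whose values over the 8 arrays were most like those of a variant were named for description. For H2afz, among 11971 genes, the highest Pearson correlations were those of Lrr1 (0.988), Tardbp (0.980), Ndc1 (0.979), Prpf4 (0.978) and Ppp2r1b (0.976), and the lowest those of Tmem88 (-0.993), Rit1 (-0.983) and Tnip1 (-0.982). For H1f0 the highest were those of Cystm1 (0.993), C3 (0.986), Fbxo21 (0.986), Anapc1 (0.982) and Mtmr3 (0.981). Over 8 arrays of 3 states, 215 genes exceeded a correlation of 0.9 with H2afz and 212 with H1f0.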

How the data were processed

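The series holds 8 Affymetrix mouse arrays, 3 ASYM, 3 SYM and 2 p53SYM. The deposited log2 values, from RMA on probe sets that the authors regrouped by RefSeq transcript, were used unchanged. Arrays have no sequencing depth; precision is set by how many there are. Of 22587 probe sets, 64 Affymetrix controls were left out. RefSeq names of the mouse assembly GRCm38.p6 matched 18294 of the other 22523 (81.2%) to 15653 genes, and 7328 probe sets share all values with another. A gene with several probe sets in a list was taken by the one with the highest mean.

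limma 3.58.1 in R 4.3.3 fitted the 3 state means over all 8 arrays together, with Benjamini-Hochberg adjustment over 22523 probe sets and a call at an adjusted p under 0.05. The rank product test was re-implemented from the study's method in Python 3.11.15 with numpy 2.4.6, over all pairs of arrays of 2 states, with 100 rounds in which probe sets were shuffled within arrays, and a call at a pfp (the expected share of false calls among probe sets at least as extreme) under 0.05 in each direction. Both were run on simulated data with changes in ASYM only. There the share of false calls was near the set level for limma and far above it for the rank product test. The rank product test also made false calls in p53SYM against SYM, where nothing had been changed. A pfp given here may therefore be too low. pandas 2.3.3, scipy 1.17.1 and matplotlib 3.10.9 were also used.

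Genes named are the 8 members, 4 genes that check the labels, in each list every gene called by rank product and, in each comparison, the 2 highest and 2 lowest differences among limma calls, and the genes most like H2afz and H1f0 by Pearson correlation (5 highest for each, 3 lowest for H2afz, above the 25th percentile, with 1 gene per probe set). Named outside this rule are cell type markers, from a list of 18, and Smarca5, H3c15, H1f4 and H2bu2. The members and lists were chosen with earlier results of these data known. Alternatives were limma on the compared groups only, with the replicate number as a block, with a 2-level block for the hybridization controls, with a trend, with a filter at the 25th percentile, with arrays centred or quantile-normalized again, with identical rows counted once, with controls kept and with a minimum change of 0.5; a pfp under 0.01; and each array left out in turn. The 17 limma alternatives counted in the text are these without the minimum change, which was run for members and not for list genes. They are not all separate fits in ASYM against SYM. There the hybridization-control block gave the same values as leaving out SYM replicate 3. Leaving out either p53SYM array gave the same values as limma on the compared groups only. Another random seed, and the list counts and the list genes' pfp under these settings, were added after seeing the data. Promoter windows are those of RefSeq, GRCm38.p6, without the bases after the start.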

Additional observations from a re-analysis of the deposited data

Results flagged for a closer look

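The array of SYM replicate 3 stood apart from the other 7 in the 3 control probe sets for mouse 18S rRNA, which take no part in the comparisons. Its values were 11.38 for the 3′ probe set against at most 7.67 elsewhere, 10.97 for the 5′ probe set against at most 5.25, and 9.53 for the middle one against at most 6.45. Without this array H2afz differed between ASYM and SYM by -0.91 and H2afx by -0.66, both called by limma, and the rank product call of H2afz was lost. The cause was not tested.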

How the results depend on the processing

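The causes of the changes below were not tested. H2afz in ASYM against SYM and H2afx against SYM in both comparisons were called under all 17 limma alternatives (all but the minimum change) and with a change of at least 0.5 required, H1f0 in p53SYM against SYM likewise. With the hybridization-control level as a block, limma called 0 members in ASYM against p53SYM and 2 in p53SYM against SYM; H2afz was at -0.74 (adjusted p = 0.0543) and -0.17 (0.480), H1f0 at -0.97 and H3f3b at -0.35 in the first and 0.44 in the other, and signs turned for H2afy (-0.0046, p53SYM against SYM), H2afy2 (0.20) and Ruvbl2 (0.11, both ASYM against p53SYM) and Atm (0.086, p53SYM against SYM). With that block all called probe sets went from 7009 to 708 in ASYM against p53SYM and from 5715 to 3066 in p53SYM against SYM. In ASYM against SYM they went from 4942 to 3650. With a change of at least 0.5 required, the member counts were 1 in ASYM against p53SYM and 2 in p53SYM against SYM. H2afz (-0.42 and -0.38) and H3f3b (-0.37 and 0.45) were not called. With 2 groups only, H2afz in p53SYM against SYM (-0.38) had an adjusted p of 0.0777. With quantile normalization again, H2afz in p53SYM against SYM was at -0.27 (0.142), the rank product test called 1 member (H1f0) in ASYM against p53SYM, and signs turned for Trp53bp1 (-0.0065), Ppp4c (-0.050) and Mt1 (-0.089) in that comparison and for Atm (0.10), Hat1 (0.016), Cenpa (0.11) and Mt1 (0.20) in p53SYM against SYM. A pfp under 0.01 left 0 rank product calls among the 6 variants. Arrays with the same replicate number deviated together with correlations of 0.270, 0.029 and 0.381 in ASYM against SYM. For different numbers they ran from -0.408 to 0.117 there. In ASYM against p53SYM they were 0.0093 and -0.225 for the same number and -0.237 to 0.237 for different numbers. In p53SYM against SYM they were 0.205 and 0.042, and -0.205 to 0.176. Whether the numbers mark arrays handled together was not tested. With the replicate block limma called H1f0 in ASYM against SYM (0.32, adjusted p = 0.0415), and Cenpa turned to 0.026 in p53SYM against SYM. With it all called probe sets went from 4942 to 5382, from 7009 to 8341 and from 5715 to 6376, in the order of the comparisons above. With each array left out in turn, where a lone p53SYM array is assumed to vary like the other groups, limma called 2 members throughout in ASYM against SYM, 1 to 3 in ASYM against p53SYM and 3 to 4 in p53SYM against SYM, and the rank product test called 0 whenever an array of the comparison was left out. H2afz ran from -0.51 to -0.33 in ASYM against p53SYM and from -0.49 to -0.29 in p53SYM against SYM, H3f3b from -0.40 to -0.34 in ASYM against p53SYM, H2afy from -0.013 to 0.029 in p53SYM against SYM, and H2afy2 from -0.26 to 0.086 in ASYM against p53SYM. Other signs turned only in differences without a call: in ASYM against SYM Actr6 (-0.13 to 0.089), Atrx (-0.23 to 0.062) and Chaf1b (-0.0035 to 0.11); in ASYM against p53SYM Brca1 (-0.20 to 0.044) and Ppp4c (-0.0067 to 0.17); in p53SYM against SYM Atm (-0.091 to 0.043), Cenpa (-0.061 to 0.046), H2bc22 (-0.054 to 0.46) and Mt1 (-0.26 to 0.044).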

Other observations

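Genes of the canonical histone clusters are transcribed mainly in S phase, and most of their transcripts end in a stem-loop in place of a poly(A) tail. Of 70 such genes, 11 had a probe set. In ASYM against SYM, 4 were higher (10.9% of all probe sets were) and 0 lower (11.0%) by limma (also 0 lower at an unadjusted p under 0.05), with a median of 0.14 beside -0.06 over all probe sets (0.22 with the arrays quantile-normalized again): Hist1h2bc and Hist1h1c, given above, H2aw (0.62) and H2bc21 (0.64). All 4 stayed called in all 17 alternatives. In ASYM against p53SYM, 4 were higher (15.6% of all) and 1, H2bc22 (-0.55), lower (15.5%), with a median of 0.36 beside -0.06 over all. Among the higher was H3c15 (0.43), which averaged below the 25th percentile, as did H1f4 and H2bu2 of this list. The count higher was 2 without ASYM replicate 2 or either p53SYM array, where H2aw (0.38) lost its call (adjusted p from 0.0648 to 0.101), and 2 with the hybridization-control block, where the median was 0.18. H2bc22 averaged below the 25th percentile, and its call was lost without ASYM replicate 2 or 3, SYM replicate 2 or p53SYM replicate 2 (adjusted p from 0.0590 to 0.362). With the arrays quantile-normalized again 5 were higher and 0 lower. In p53SYM against SYM, 1 was higher (10.2% of all) and 2 lower (15.1%), with a median of -0.0003 beside 0.04 over all. H2bc21 was the higher one (0.88, SE 0.165, limma adjusted p = 0.00341), and Hist1h2bc and Hist1h1c were lower, the latter not without p53SYM replicate 2, where the count lower was 1. The count lower was 3, with a median of 0.04, without SYM replicate 3, and 1 with the hybridization-control block; the median was -0.09 with that block and with the arrays quantile-normalized again. H2bc21 was at 4.68, 4.70 and 4.33 in ASYM, 4.11, 3.96 and 3.72 in SYM, and 5.01 and 4.61 in p53SYM, near the dim end of the arrays.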
